A study of Drosophila melanogaster with 9 samples.

Results

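The 10 genes described here, piwi, aub, AGO3, vas, spn-E, krimp, rhi, armi, zuc and mael, encode proteins that make or use Piwi-interacting RNAs (piRNAs) in the ovary of Drosophila melanogaster. They were taken by gene name from the deposited gene tables, which list 15602 genes, and all 10 were found and had a usable estimate in each of the 9 libraries. Poly(A)-selected RNA was sequenced from ovarian follicles that had been dissected by stage, with 100 follicles in a sample and 3 samples in a group. The EcRts stage 10 group came from mutants of EcR, which encodes the ecdysone receptor, moved to a restrictive temperature 2 days after eclosion. The WT stage 10 and WT stage 8 groups had no mutation named and were kept at 25 °C. All 9 samples carry the strain label Oregon R, the mutants included, and came from adult females labelled 6 to 14 days old, a range that starts at 4 days in the growth protocol, with optimal food for 36 h before analysis. The sources used here give neither the EcR alleles nor the restrictive temperature; mutation and temperature changed together and cannot be told apart. Nothing in the labels ties the 3 samples in a group to different females or collection days, and p-values then measure only the spread between these samples.

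piRNAs are small RNAs that guide Piwi proteins to transposon transcripts. In the germ cells of the fly ovary, the cytoplasmic Piwi proteins Aubergine (aub) and Argonaute 3 (AGO3) cut transposon and piRNA precursor transcripts in turn, in a cycle called ping-pong that runs in granules around the nucleus, the nuage. Piwi itself acts in the nucleus of germ cells and of the somatic follicle cells, where it directs transcriptional silencing of transposons. A follicle holds an oocyte and nurse cells within a follicle cell layer, and a library mixes all of them: fewer cells of a type and less RNA per cell cannot be told apart.

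Values were FPKM, sequenced fragments scaled by transcript length and library depth, so levels can be set side by side between genes. The FPKM values and their confidence limits imply 27.2 to 33.3 M fragments (M for mega) in EcRts stage 10 libraries, 17.5 to 21.3 M in WT stage 10 and 18.6 to 21.7 M in WT stage 8, and between 307 (zuc) and 8441 (piwi) fragments for a member in a library. Genes marked protein-coding in a current annotation held 60.3 to 62.6% of the summed FPKM in EcRts stage 10, 78.8 to 79.8% in WT stage 10 and 66.9 to 69.4% in WT stage 8, so the scale itself differs between the groups. That annotation does not list the identifiers of some coding genes, vas among them, so these are outside the protein-coding share. EcR mRNA averaged 20.6 ± 0.670 FPKM in EcRts stage 10, 21.0 ± 1.36 in WT stage 10 and 19.4 ± 0.446 in WT stage 8 (SD, n = 3 each), which for a temperature-sensitive mutant does not check the label. Of 13 germline markers, such as osk, nos and grk, all were detected, with a summed level of 2292 to 2342 FPKM in EcRts stage 10, 2241 to 2468 in WT stage 10 and 2573 to 2771 in WT stage 8. The 13 follicle cell markers, which include vitelline membrane genes, summed to 33534 to 41756 FPKM in EcRts stage 10, 31262 to 42215 in WT stage 10 and 10621 to 19224 in WT stage 8. Most markers of other cell types were low, with exceptions up to the level of the members (crq). The 9 muscle markers summed to 20.1 to 27.3 FPKM in EcRts stage 10, 12.1 to 16.4 in WT stage 10 and 7.84 to 13.7 in WT stage 8. The 5 fat body markers summed to 3.94 to 16.2 FPKM in EcRts stage 10, 8.03 to 15.8 in WT stage 10 and 2.68 to 3.80 in WT stage 8. Most of that was apolpp, with means of 7.72, 9.44 and 3.03 FPKM in the same order. The 8 testis markers summed to 5.09 to 5.45, 1.25 to 2.14 and 1.43 to 2.05 FPKM in that order, with 7 of 8 under 1 FPKM in every library and dj at 0. The gene mia carried this sum, with means of 4.71, 1.24 and 1.40 FPKM. Of 6 hemocyte markers 5 stayed under 1 FPKM in every library and He was at 0; crq carried the sum, which was 65.2 to 71.7 FPKM in EcRts stage 10, 93.3 to 94.2 in WT stage 10 and 50.2 to 56.3 in WT stage 8.

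vas was the most abundant of the 10 genes in every group, at 145 ± 4.78 FPKM in EcRts stage 10, 173 ± 6.24 in WT stage 10 and 137 ± 16.7 in WT stage 8. In WT stage 10, AGO3 came next, then piwi and armi, then mael and aub, whose libraries overlapped, then spn-E, and last rhi, krimp and zuc, which also overlapped. In WT stage 8 the order was vas, piwi, aub, AGO3 and armi, with AGO3 overlapping both aub and armi, and zuc was alone at the bottom. Below vas in EcRts stage 10 came piwi, AGO3, aub and armi, a run in which each overlapped the next, krimp overlapped spn-E, and zuc and rhi shared the lowest levels. The 10 genes together summed to 526 ± 17.3 FPKM in EcRts stage 10, 606 ± 7.69 in WT stage 10 and 573 ± 34.3 in WT stage 8. Within a group, the coefficient of variation of a member over 3 libraries ran between 1.55% (mael in EcRts stage 10) and 12.2% (vas in WT stage 8), with a median of 4.53%.

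**Figure D1:**
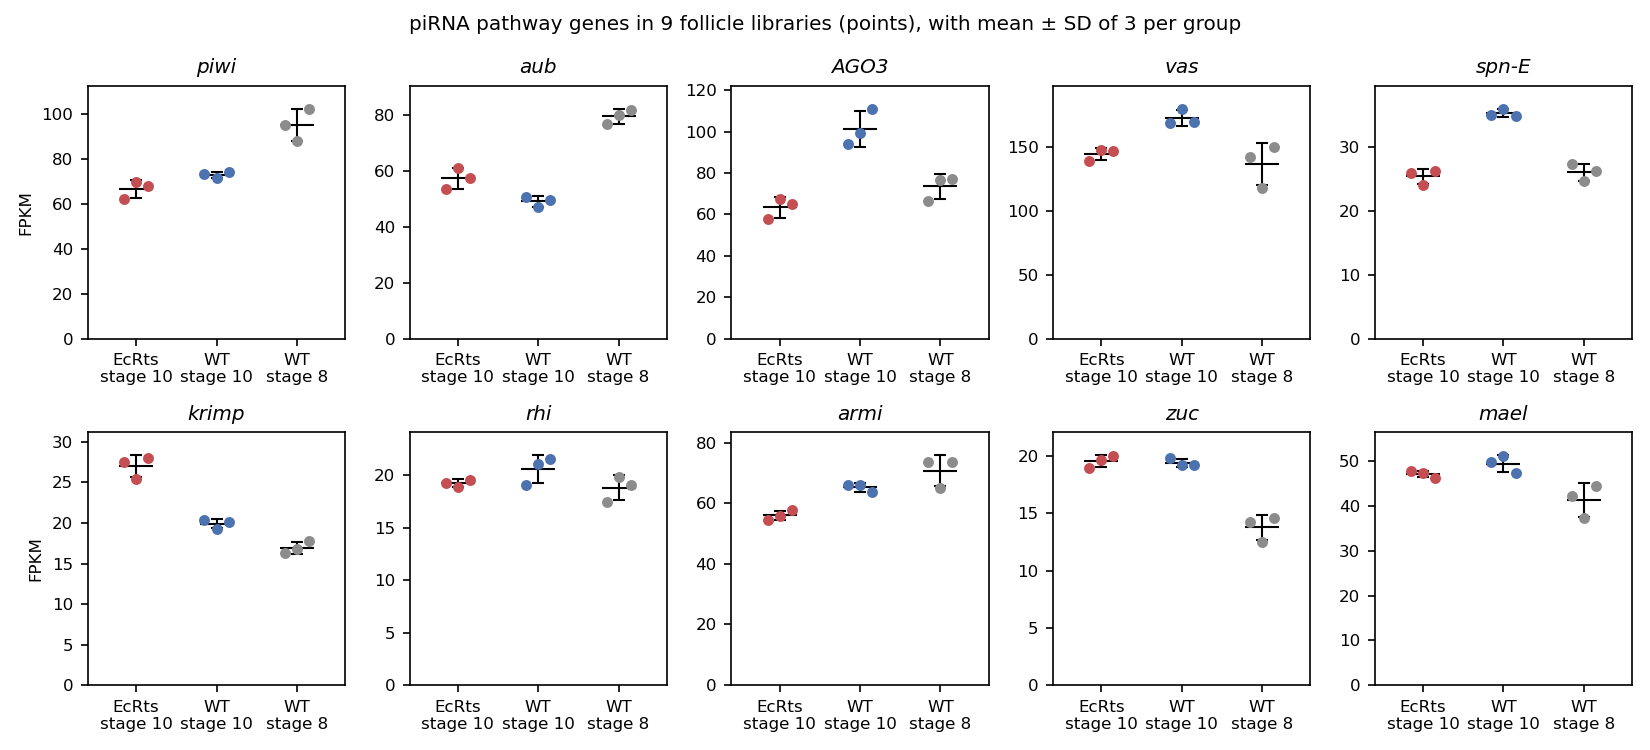
FPKM of each of the 10 genes (y axis, starting at 0) in the 9 libraries (points), with bars for the mean ± SD of the 3 libraries of a group. AGO3 and spn-E stand highest in WT stage 10, krimp in EcRts stage 10, and piwi and aub in WT stage 8.

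Between WT stage 10 and WT stage 8, the members went in both directions. aub and piwi fell, AGO3, vas, spn-E, krimp, zuc and mael rose, and rhi and armi did not pass the test (limma on log2(FPKM + 1), Benjamini-Hochberg adjustment over 8340 tested genes, adjusted p under 0.05). Of all tested genes 68.1% were called in this comparison, 49.2% as higher and 18.9% as lower, so 8 of 10 called is near the background. The median log2 change was 0.24 over the members and 0.20 over all tested genes. That shared shift matters for the smaller rises: relative to the median of all tested genes, krimp stood at 0.02, mael at 0.05 and vas at 0.14. On the same footing aub stood at -0.89, piwi at -0.58, zuc at 0.26, AGO3 at 0.25 and spn-E at 0.22. Of the members that did not pass, armi stood at -0.32 and rhi at -0.08. The follicle cell, fat body and hemocyte marker sums and the protein-coding share of FPKM were higher in WT stage 10 than in WT stage 8 with no overlap, and the germline sum was lower, as given above. Their part in these changes was not tested. A sum follows its most abundant genes, and the single markers were split. Of the 13 follicle cell markers 6 were called higher and 5 lower, and of the 13 germline markers 7 were higher and 5 lower.

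Between EcRts stage 10 and WT stage 10, AGO3, spn-E, vas and armi fell, krimp and aub rose, and piwi, rhi, zuc and mael did not pass the test. Of all tested genes 43.8% were called, 9.93% as higher and 33.9% as lower, against 6 of 10 members. The median log2 change was -0.11 over the members and -0.12 over all tested genes. Relative to the median of all tested genes, AGO3 stood at -0.55, spn-E at -0.34, krimp at 0.54 and aub at 0.33. The muscle marker sum, the testis sum (carried by mia) and the implied depth were higher in EcRts stage 10 than in WT stage 10 with no overlap. The hemocyte sum (carried by crq) and the protein-coding share of FPKM were lower. The part of each in these changes was not tested. The germline marker sums of the 2 groups overlapped, and 0 of the 13 germline markers were called higher and 2 lower.

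Between EcRts stage 10 and WT stage 8, piwi, aub and armi fell and krimp, zuc and mael rose, against 61.4% of all tested genes called, 39.8% as higher and 21.5% as lower. The median log2 change was 0.00 over the members and 0.11 over all tested genes. The germline marker sum was lower in EcRts stage 10 than in WT stage 8 with no overlap. The follicle cell, muscle, fat body, testis and hemocyte sums and the implied depth were higher, also with no overlap, and the protein-coding share was lower. The part of each was not tested. Of the 13 germline markers 4 were called higher and 5 lower, and of the 13 follicle cell markers 7 were higher and 4 lower. The 3 comparisons share libraries, each group entering 2 of them, so they are not independent of one another.

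**Figure D2:**
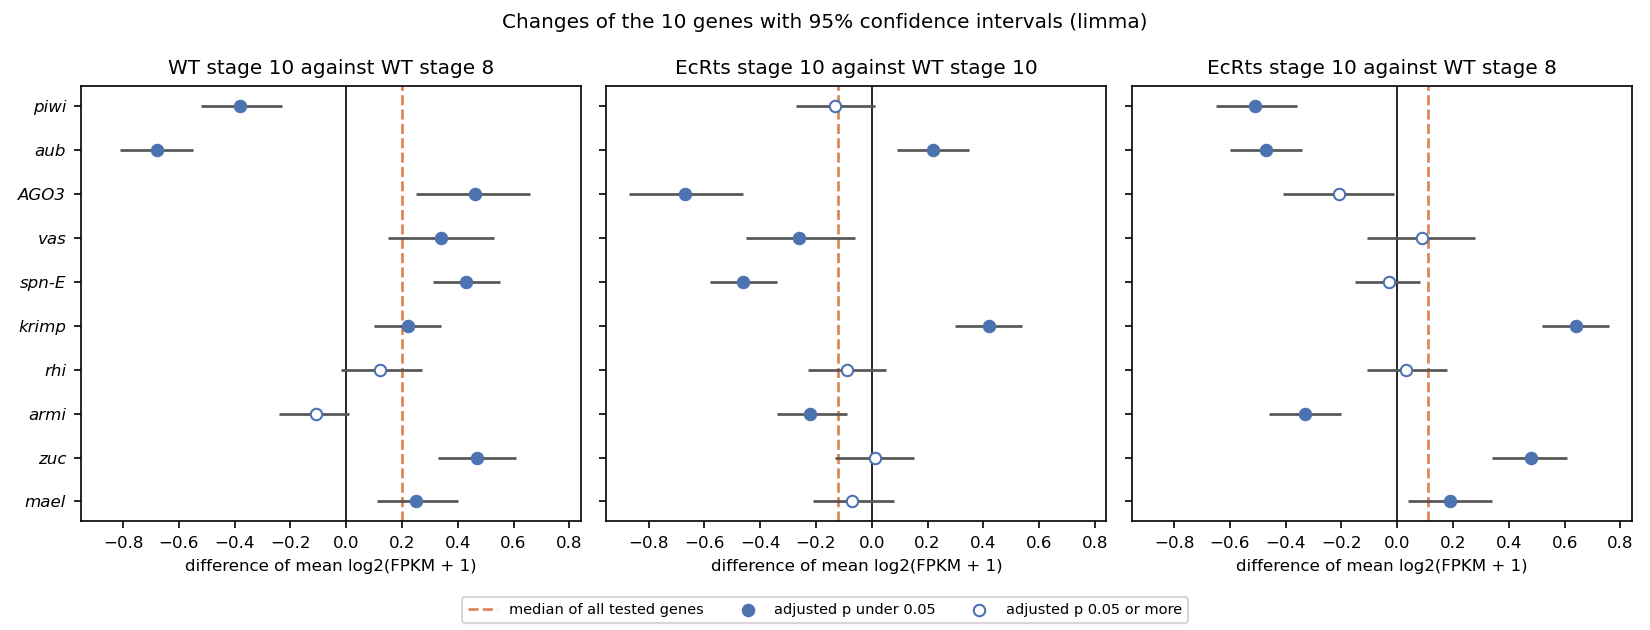
Difference of mean log2(FPKM + 1) (x axis) of each of the 10 genes (rows) in the 3 comparisons, with 95% confidence intervals; filled points passed an adjusted p of 0.05 and the dashed line is the median of all tested genes. aub and piwi lie far to the left of that line in WT stage 10 against WT stage 8, and AGO3 and krimp lie on opposite sides of it in EcRts stage 10 against WT stage 10.

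The mRNAs of the 3 Piwi proteins did not all move together between the WT stages or between the stage 10 groups. AGO3, the ping-pong partner of Aubergine, spans 135 kb of chromosome 3L (23547693 to 23682740; FBgn0250816; coordinates here are of build dm3, as deposited). It had 57.8, 67.6 and 65.0 FPKM in the EcRts stage 10 libraries, 94.1, 99.2 and 111 FPKM in WT stage 10, and 66.6, 76.8 and 77.3 FPKM in WT stage 8. Every WT stage 10 library lay above all 6 others, while the lowest WT stage 8 library lay within the EcRts stage 10 range. In WT stage 10 against WT stage 8, AGO3 rose 1.38-fold (log2 change 0.46, 95% interval 0.25 to 0.66, adjusted p = 0.00194). It fell to 0.626 of the WT stage 10 mean in EcRts stage 10 (log2 change -0.67, 95% interval -0.87 to -0.46, adjusted p = 0.000863). Against WT stage 8, EcRts stage 10 AGO3 differed by -0.21 on the log2 scale (95% interval -0.41 to -0.01, adjusted p = 0.0686), and without WT stage 8 replicate 1 that difference passed the test (-0.28, adjusted p = 0.0281), as it did under median-of-ratios scaling (-0.30, adjusted p = 0.0324). The rise in WT stage 10 was 0.25 (adjusted p = 0.0624) under that scaling.

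aub, on chromosome 2L (10997819 to 11001489; FBgn0000146), was lowest where AGO3 was highest. It had 53.3, 61.1 and 57.3 FPKM in EcRts stage 10, 50.8, 47.0 and 49.6 FPKM in WT stage 10, and 76.7, 79.9 and 81.9 FPKM in WT stage 8. The 3 groups did not overlap, with WT stage 8 highest and WT stage 10 lowest. aub fell to 0.618 of the stage 8 mean in WT stage 10 (log2 change -0.68, 95% interval -0.81 to -0.55, adjusted p = 2.35e-05), the largest decrease of a member in that comparison. It rose 1.17-fold in EcRts stage 10 over WT stage 10 (log2 change 0.22, 95% interval 0.09 to 0.35, adjusted p = 0.0167) but was below WT stage 8 (-0.47, adjusted p = 0.000231). The rise over WT stage 10 rested on single libraries for its call: without WT stage 10 replicate 2 it was 0.18 (adjusted p = 0.0523) and without EcRts stage 10 replicate 2 it was 0.17 (adjusted p = 0.053). Relative to genes outside a set of 24 eggshell and yolk genes it was 0.03 (adjusted p = 0.617).

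piwi lies 10402 bases from aub on chromosome 2L, with 2 listed genes between them (10982205 to 10987416; FBgn0004872). It had 62.2, 69.9 and 67.9 FPKM in EcRts stage 10, 73.2, 71.5 and 74.2 FPKM in WT stage 10, and 95.4, 88.3 and 102 FPKM in WT stage 8. Each WT stage 8 library exceeded all stage 10 libraries, and the EcRts libraries lay just below those of WT stage 10. piwi fell to 0.765 of the stage 8 mean in WT stage 10 (log2 change -0.38, 95% interval -0.52 to -0.23, adjusted p = 0.00086) and to 0.699 of it in EcRts stage 10 (-0.51, 95% interval -0.65 to -0.36, adjusted p = 0.000259). Between the genotypes at stage 10 the difference was -0.13 (95% interval -0.27 to 0.01, adjusted p = 0.127). Outside the eggshell and yolk set that difference was -0.31 (adjusted p = 0.00379), and the one between WT stage 10 and WT stage 8 was -0.15 (adjusted p = 0.0678). piwi and the gene SCAR on the other strand share 191 bases, and the library kit does not keep strand, so reads there cannot be assigned to one of them by the kit.

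Since the 3 genes did not change alike, their proportions differed between the groups. AGO3 made up 33.9% of the summed FPKM of piwi, aub and AGO3 in EcRts stage 10, 45.3% in WT stage 10 and 29.6% in WT stage 8, while aub made up 30.5%, 22.0% and 32.0% in the same order of groups. A ratio of genes within a library does not depend on how libraries are scaled to each other. The ratio of AGO3 to aub was 1.08, 1.11 and 1.13 in EcRts stage 10, 1.85, 2.11 and 2.24 in WT stage 10, and 0.868, 0.962 and 0.944 in WT stage 8. AGO3 thus exceeded aub by about a factor of 2.07 in WT stage 10, was close to it in EcRts stage 10 (1.11 ± 0.0257) and was below it in WT stage 8 (0.925 ± 0.0497), with no overlap between groups. The ratio of piwi to aub was 1.17 ± 0.0205 in EcRts stage 10, 1.49 ± 0.0412 in WT stage 10 and 1.20 ± 0.0820 in WT stage 8, and the EcRts stage 10 and WT stage 8 libraries overlapped. 8 ratios were examined in 3 comparisons, chosen after the values were seen. With 3 libraries against 3 an exact two-sided permutation test cannot go below p = 0.1, and 21 of the 24 tests reached that value (adjusted p = 0.114).

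**Figure D3:**
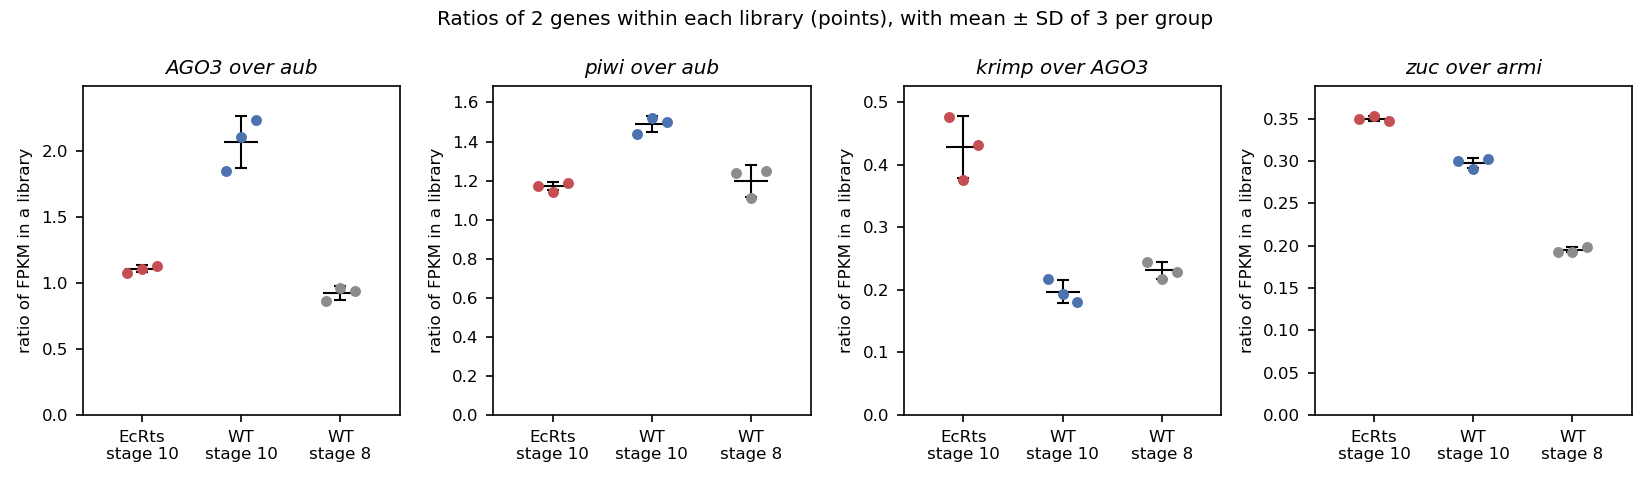
Ratio of the FPKM of 2 genes within each library (points; y axes start at 0), with bars for the mean ± SD of 3 libraries. The ratio of AGO3 to aub lies between 1.85 and 2.24 in WT stage 10, above every library of EcRts stage 10 (1.08 to 1.13) and WT stage 8 (0.868 to 0.962).

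Among the nuage proteins, vas encodes Vasa, a DEAD-box RNA helicase that hands cleaved RNA on in the ping-pong cycle and also acts in germ plasm. It lies on chromosome 2L (15061656 to 15074383; FBgn0262526) and had 139, 148 and 147 FPKM in EcRts stage 10, 169.0, 180.1 and 169.5 FPKM in WT stage 10, and 142, 118 and 150.1 FPKM in WT stage 8. WT stage 10 stood above both other groups, which overlapped. vas rose 1.26-fold in WT stage 10 against WT stage 8 (log2 change 0.34, 95% interval 0.15 to 0.53, adjusted p = 0.00646), and median-of-ratios scaling gave 0.13 (adjusted p = 0.183). The level fell to 0.837 of the WT stage 10 mean in EcRts stage 10 (log2 change -0.26, 95% interval -0.45 to -0.06, adjusted p = 0.0375), a call lost when any 1 of the 6 stage 10 libraries was left out (adjusted p between 0.0687 and 0.106). Relative to protein-coding genes, a sum that leaves out vas itself, it was -0.06 (adjusted p = 0.594). The gene vig, named for its position in a vasa intron, lies within vas and covers 7386 bases of the locus. vig went the other way, with 52.5, 49.2 and 50.5 FPKM in EcRts stage 10, 38.6, 31.8 and 32.8 FPKM in WT stage 10, and 59.3, 65.6 and 59.5 FPKM in WT stage 8. How the authors' counting divided fragments between the 2 genes is not given in the sources used here, so the value of each carries that uncertainty.

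spn-E encodes Spindle-E, a DExH-box RNA helicase with a Tudor domain that is needed for the ping-pong cycle in germ cells. It lies on chromosome 3R (11663159 to 11670138; FBgn0003483) and had 25.9, 24.0 and 26.3 FPKM in EcRts stage 10, 35.0, 36.0 and 34.9 FPKM in WT stage 10, and 27.3, 24.6 and 26.2 FPKM in WT stage 8. WT stage 10 was again above both other groups, which overlapped. spn-E rose 1.36-fold in WT stage 10 against WT stage 8 (log2 change 0.43, 95% interval 0.31 to 0.55, adjusted p = 0.000157) and in EcRts stage 10 fell to 0.719 of the WT stage 10 mean (-0.46, 95% interval -0.58 to -0.34, adjusted p = 0.000484). EcRts stage 10 differed from WT stage 8 by -0.03 (95% interval -0.15 to 0.08, adjusted p = 0.587), and quantile normalization gave -0.18 (adjusted p = 0.00909). Pbp45, which lies within spn-E on the other strand, had between 1.12 and 2.55 FPKM in the 9 libraries.

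krimp encodes Krimper, a Tudor-domain protein that brings Aubergine and AGO3 together in nuage, and it was the only member with every EcRts stage 10 library above all 6 WT libraries. It lies on chromosome 2R (12125608 to 12128222; FBgn0034098) and had 27.5, 25.5 and 28.0 FPKM in EcRts stage 10, 20.4, 19.3 and 20.1 FPKM in WT stage 10, and 16.3, 16.8 and 17.7 FPKM in WT stage 8. The 3 groups did not overlap, with WT stage 8 lowest, and the share of all tested genes with this order was not counted. krimp rose 1.35-fold in EcRts stage 10 over WT stage 10 (log2 change 0.42, 95% interval 0.30 to 0.54, adjusted p = 0.000709) and 1.59-fold over WT stage 8 (0.64, adjusted p = 4.63e-05). The rise in WT stage 10 against WT stage 8 was 1.18-fold (0.22, 95% interval 0.10 to 0.34, adjusted p = 0.0056), and it became -0.06 (adjusted p = 0.408) when the libraries were quantile-normalized and 0.02 (adjusted p = 0.795) under median-of-ratios scaling. The ratio of krimp to AGO3 was 0.428 ± 0.0497 in EcRts stage 10, 0.197 ± 0.0181 in WT stage 10 and 0.231 ± 0.0132 in WT stage 8. The ratio of spn-E to krimp was 0.941, 0.943 and 0.938 in EcRts stage 10, against 1.72, 1.87 and 1.73 in WT stage 10 and 1.68, 1.47 and 1.48 in WT stage 8.

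mael encodes Maelstrom, which is found in nuage and in nuclei and acts with Piwi in transcriptional silencing. It lies on chromosome 3L (22717333 to 22719334; FBgn0016034) and had 47.8, 47.3 and 46.4 FPKM in EcRts stage 10, 49.9, 51.1 and 47.4 FPKM in WT stage 10, and 42.3, 37.3 and 44.6 FPKM in WT stage 8. The stage 10 groups overlapped, and both lay above the WT stage 8 libraries. mael rose 1.20-fold in WT stage 10 against WT stage 8 (log2 change 0.25, 95% interval 0.11 to 0.40, adjusted p = 0.00787), and under median-of-ratios scaling this was 0.04 (adjusted p = 0.525) and under quantile normalization 0.04 (adjusted p = 0.544). EcRts stage 10 differed from WT stage 10 by -0.07 (95% interval -0.21 to 0.08, adjusted p = 0.437), or -0.25 (adjusted p = 0.0127) outside the eggshell and yolk set, and was 1.14-fold above WT stage 8 (0.19, adjusted p = 0.0332), a call lost without any 1 of the EcRts stage 10 libraries (adjusted p between 0.0628 and 0.085) and without WT stage 8 replicate 2 (adjusted p = 0.0656).

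rhi encodes Rhino, a germline heterochromatin protein that marks dual-strand piRNA clusters for transcription. It lies on chromosome 2R (13515994 to 13521018; FBgn0004400) and had 19.3, 18.8 and 19.6 FPKM in EcRts stage 10, 19.1, 21.0 and 21.6 FPKM in WT stage 10, and 17.5, 19.8 and 19.1 FPKM in WT stage 8. The 3 groups overlapped, and as deposited rhi was the only member that passed the test in none of the 3 comparisons. The log2 difference was 0.12 in WT stage 10 against WT stage 8 (95% interval -0.02 to 0.27, adjusted p = 0.11) and passed without WT stage 10 replicate 1 (0.17, adjusted p = 0.0428). It was -0.09 in EcRts stage 10 against WT stage 10 (95% interval -0.23 to 0.05, adjusted p = 0.266) and 0.03 against WT stage 8 (95% interval -0.11 to 0.18, adjusted p = 0.669). Outside the eggshell and yolk set rhi passed in WT stage 10 against WT stage 8 (0.34, adjusted p = 0.00186) and in EcRts stage 10 against WT stage 10 (-0.27, adjusted p = 0.00848). rhi lies on the same strand within the span of CG10936, which had 4.00 to 5.95 FPKM over the libraries.

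The remaining members make primary, phased piRNAs at the mitochondrial surface: zuc encodes Zucchini, the endonuclease that cuts the precursor, and armi encodes Armitage, the RNA helicase that brings the precursor to it. zuc lies on chromosome 2L (11988735 to 11989861; FBgn0261266) and had 19.0, 19.7 and 20.0 FPKM in EcRts stage 10, 19.8, 19.2 and 19.2 FPKM in WT stage 10, and 14.2, 12.5 and 14.6 FPKM in WT stage 8. Both stage 10 groups were above WT stage 8 and overlapped each other. zuc rose 1.41-fold in WT stage 10 against WT stage 8 (log2 change 0.47, 95% interval 0.33 to 0.61, adjusted p = 0.000197) and 1.42-fold in EcRts stage 10 against WT stage 8 (0.48, adjusted p = 0.000272). Between the genotypes the difference was 0.01 (95% interval -0.13 to 0.15, adjusted p = 0.911). The scaling decided this value: it was 0.20 (adjusted p = 0.0221) relative to protein-coding genes and -0.17 (adjusted p = 0.0446) relative to genes outside the eggshell and yolk set.

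armi lies on chromosome 3L (3461315 to 3466303; FBgn0041164) and had 54.5, 55.8 and 57.6 FPKM in EcRts stage 10, 66.1, 66.1 and 63.6 FPKM in WT stage 10, and 73.6, 64.9 and 73.7 FPKM in WT stage 8. Every EcRts stage 10 library was below all WT libraries, and the WT stages overlapped. armi fell in EcRts stage 10 to 0.857 of the WT stage 10 mean (log2 change -0.22, 95% interval -0.34 to -0.09, adjusted p = 0.0139) and to 0.791 of the WT stage 8 mean (-0.33, adjusted p = 0.00113). The fall against WT stage 10 was lost relative to protein-coding genes (-0.02, adjusted p = 0.761), under median-of-ratios scaling (-0.10, adjusted p = 0.151) and under quantile normalization (-0.08, adjusted p = 0.161). Between the WT stages the difference was -0.11 (95% interval -0.24 to 0.01, adjusted p = 0.102), and -0.17 (adjusted p = 0.00717) without WT stage 8 replicate 2. armi was also called lower there under median-of-ratios scaling (-0.32, adjusted p = 0.000542), quantile normalization (-0.26, adjusted p = 0.000811) and protein-coding scaling (-0.18, adjusted p = 0.0136). The ratio of zuc to armi varied little within a group and did not overlap between groups, at 0.350 ± 0.00312 in EcRts stage 10, 0.298 ± 0.00598 in WT stage 10 and 0.195 ± 0.00299 in WT stage 8.

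How the libraries are put on one scale moved the members, by nearly the same shift where a library is divided by 1 factor and by unequal shifts under quantile normalization. The median of all tested genes in WT stage 10 against WT stage 8 was 0.20 as deposited, 0.01 after median-of-ratios scaling, 0.14 relative to protein-coding genes and 0.42 relative to genes outside the eggshell and yolk set. The share of called genes that were higher ran from 72.2% as deposited to 50.9% after quantile normalization and 86.1% outside the eggshell and yolk set. That share was, in EcRts stage 10 against WT stage 10, 22.7% as deposited, 51.2% after median-of-ratios scaling, 68.1% relative to protein-coding genes and 8.10% outside the eggshell and yolk set. Through all 21 alternatives, 3 of the 8 member calls in WT stage 10 against WT stage 8 held (aub, spn-E and zuc), as did 3 of 6 in EcRts stage 10 against WT stage 10 (AGO3, spn-E and krimp) and 5 of 6 in EcRts stage 10 against WT stage 8 (piwi, aub, krimp, armi and zuc). The share of all called genes that held in the same way was not counted, so members cannot be set against it.

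**Figure D4:**
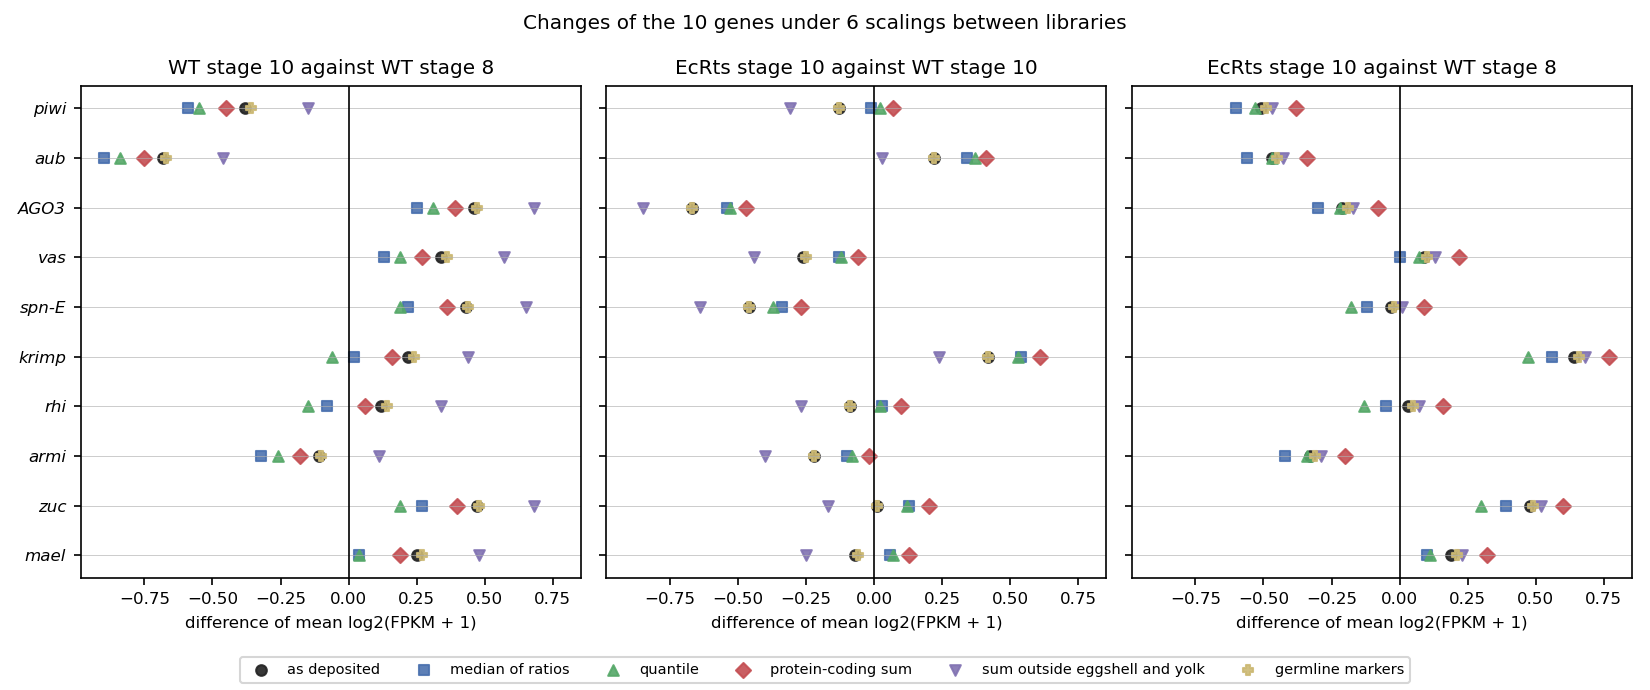
Difference of mean log2(FPKM + 1) (x axis) of the 10 genes (rows) in the 3 comparisons under 6 ways of scaling the libraries (symbols). The symbols of a gene differ by much the same shift for every gene except under quantile normalization, and AGO3 and spn-E stay below 0 and krimp stays above 0 in EcRts stage 10 against WT stage 10 under all 6.

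The other 49 genes of a wider piRNA pathway list, all of them tested, also held genes that rose and genes that fell. In WT stage 10 against WT stage 8, 26 were higher, 8 were lower and 15 did not pass, near the background of 49.2% higher and 18.9% lower over all tested genes, with a median log2 change of 0.21 against 0.20 for all tested genes. The 12 genes of nuclear silencing, which act with Piwi on chromatin, had 10 higher and 0 lower calls and a median of 0.42, beside that background of 49.2% and 18.9%. Of 15 genes of cluster transcription and export, 8 were higher and 2 lower, and of 12 nuage genes 3 were higher and 3 lower, where the same background applies. The 3 largest called rises were moon (log2 change 1.06, adjusted p = 0.000133), Su(var)3-3 (0.77, adjusted p = 8.87e-05) and thoc5 (0.72, adjusted p = 0.000124). moon encodes Moonshiner, a transcription factor of heterochromatic piRNA clusters that Rhino recruits, Su(var)3-3 a histone demethylase and thoc5 a subunit of the THO complex. The 3 largest called falls on the log2(FPKM + 1) scale were papi (-0.92, adjusted p = 7.54e-06), tj (-0.81, adjusted p = 7.55e-05) and fs(1)Yb (-0.73, adjusted p = 0.00241). papi encodes a mitochondrial Tudor protein, and tj (Traffic jam, a transcription factor) and fs(1)Yb (Yb, a Tudor-domain helicase) act in follicle cells. The follicle cell markers as a list were split in this comparison, with 6 called higher and 5 lower. fs(1)Yb is low, at 0.985 ± 0.270 FPKM in WT stage 10 and 2.30 ± 0.383 in WT stage 8, so its value rests on the pseudocount: it was -1.16 with 0.1 and -0.29 with 5, and by ratio of means it fell most of the 3, to 0.429. papi had 28.2, 25.6 and 25.3 FPKM in WT stage 10, against 52.4, 48.6 and 51.1 FPKM in WT stage 8.

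In EcRts stage 10 against WT stage 10, 27 of the 49 were lower, 4 were higher and 18 did not pass, beside 33.9% lower and 9.93% higher over all tested genes, with a median of -0.19 against -0.12 for all tested genes. Beside that 33.9%, lower calls were made for 8 of 12 nuclear silencing genes, 8 of 12 nuage genes, 7 of 15 genes of cluster transcription and export and 4 of 7 genes of mitochondria, 3′-end trimming and methylation. The largest called falls were Hen1 (-0.96, adjusted p = 0.000479), moon (-0.76, adjusted p = 0.00242) and Hsp83 (-0.51, adjusted p = 0.0102, but -0.31 and adjusted p = 0.058 relative to protein-coding genes). Hen1, the methyltransferase that modifies the 3′ ends of piRNAs, had 6.36, 7.74 and 7.81 FPKM in EcRts stage 10, against 14.1, 13.9 and 17.5 FPKM in WT stage 10. moon had 17.5, 23.2 and 21.7 FPKM in EcRts stage 10, against 34.6, 38.4 and 34.1 FPKM in WT stage 10. Neither pair of groups overlapped. The largest called rises were tj (0.41, adjusted p = 0.00631), BoYb, a Tudor-domain helicase of germline nuage (0.32, adjusted p = 0.00135), and cuff, a partner of Rhino at clusters (0.31, adjusted p = 0.0289, lost in 10 of 21 alternatives). Relative to protein-coding genes the counts turned to 12 higher and 4 lower of the 49. Over all 8340 tested genes the calls turned too, to 2249 higher and 1052 lower. The direction of the list as a whole thus rests on the scaling, as does that of all tested genes.

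Set against WT stage 8, EcRts stage 10 had 18 of the 49 higher and 15 lower, and 16 did not pass, beside 39.8% higher and 21.5% lower over all tested genes. The median was 0.06, against 0.11 over all tested genes. papi (-1.15), qin, a Tudor-domain protein of the ping-pong cycle (-0.63), and fs(1)Yb (-0.57) were the largest called falls, and thoc5 (0.52), l(3)mbt, a chromatin protein (0.51), and Su(var)3-3 (0.42) the largest called rises. The 13 Stellate genes, which piRNAs silence in testis, had at most 0.281 FPKM in any library and were not tested.

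**Figure D5:**
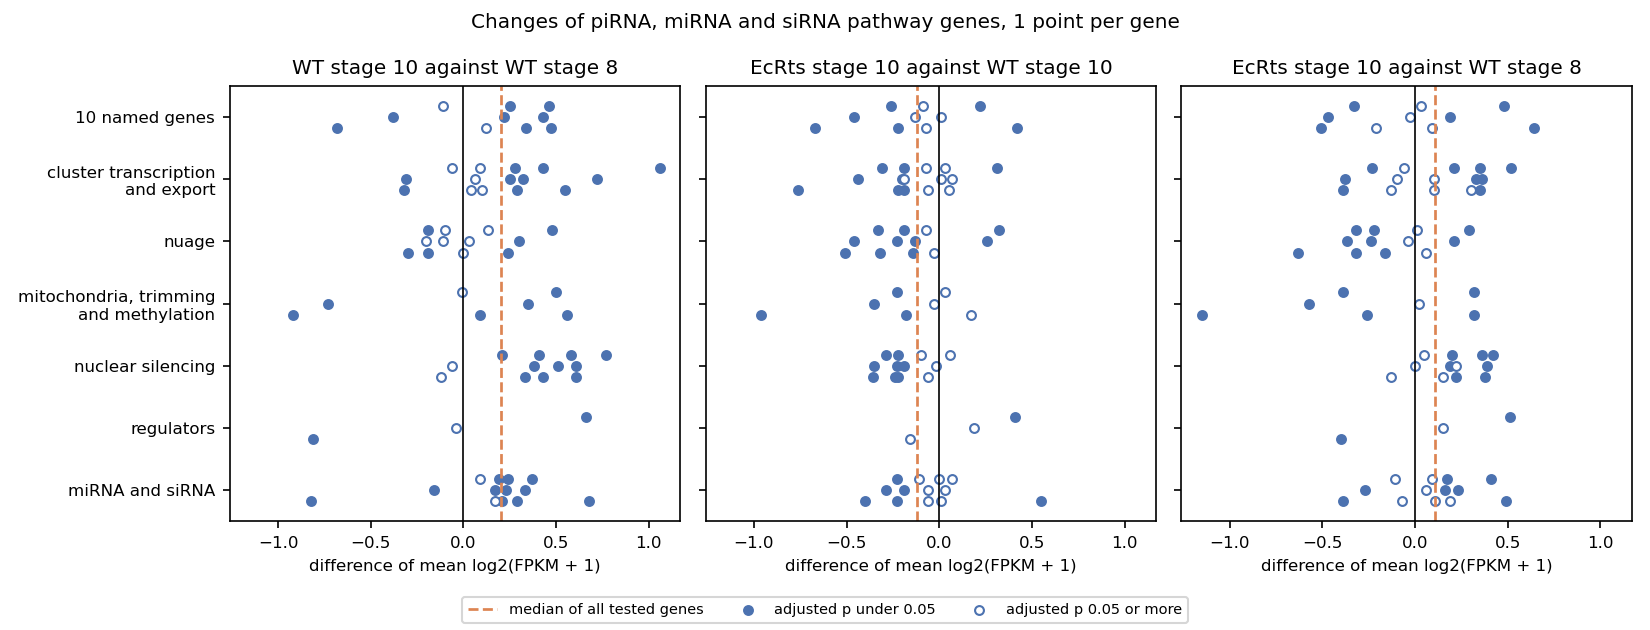
Difference of mean log2(FPKM + 1) (x axis) for the 10 named genes, the 49 other piRNA pathway genes in 5 groups and 13 miRNA and siRNA pathway genes (rows; 1 point a gene, spread vertically only for legibility) in the 3 comparisons. Filled points passed an adjusted p of 0.05 and the dashed line is the median of all tested genes; 10 of the 12 nuclear silencing genes are filled and right of 0 in WT stage 10 against WT stage 8.

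The 13 genes of the miRNA and siRNA pathways, which use Argonaute proteins outside the Piwi family, served for comparison. In WT stage 10 against WT stage 8, 9 were higher and 2 lower, beside 68.1% of all tested genes called, with a median of 0.21, near that of all tested genes. In EcRts stage 10 against WT stage 10, 1 was higher and 5 lower, beside 43.8% called, with a median of -0.06, and in EcRts stage 10 against WT stage 8, 5 were higher and 2 lower, beside 61.4% called, with a median of 0.11. AGO2, the siRNA Argonaute, had 62.1, 60.1 and 60.0 FPKM in EcRts stage 10, 81.0, 81.9 and 78.7 FPKM in WT stage 10, and 66.9, 64.8 and 59.5 FPKM in WT stage 8. Its 3 WT stage 10 libraries lay above all others, as those of AGO3, vas and spn-E did. The share of all tested genes with that order was not counted. AGO2 rose by a log2 change of 0.33 in WT stage 10 against WT stage 8 and fell by 0.40 in EcRts stage 10 against WT stage 10.

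The genes whose profile over the 9 libraries was most like that of a Piwi gene were found by the root-mean-square difference of log2(FPKM + 1), each centred on its own mean. For piwi these were Nnp-1 (0.04), RpS2, a ribosomal protein gene (0.0588), and CG14657 (0.0593). Nnp-1 averaged 63.8 ± 2.28 FPKM in EcRts stage 10, 67.6 ± 2.81 in WT stage 10 and 89.8 ± 5.30 in WT stage 8 (SD, n = 3 each). For aub they were CG10565 (0.0549), CG2972 (0.0556) and Tsp74F (0.0585), and for AGO3 CG17883 (0.0587), Pur-alpha (0.0599) and CG15083 (0.0661). Pur-alpha averaged 13.7 ± 0.839 FPKM in EcRts stage 10, 23.0 ± 1.69 in WT stage 10 and 16.3 ± 0.676 in WT stage 8. The 10 members were left out of this search, so it cannot say how close they lie to one another.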

How the data were processed

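The authors deposited 1 gene table per library with an FPKM value, its confidence limits and an estimate status for each gene. Per the submitters' processing notes, CASAVA 1.8.2, Bowtie2 2.0.6, TopHat2 2.0.7 and Cufflinks 2.02 were used with build dm3; the sources used here give neither their settings nor the gene annotation. Per the labels' protocols, libraries came from poly(A)-selected RNA with a TruSeq v2 kit.

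From these values, log2(FPKM + 1) was fitted with limma 3.58.1 in R 4.3.3 (1 mean per group over all 9 libraries, 6 residual degrees of freedom, variance trend on the mean), with Benjamini-Hochberg adjustment per comparison and a threshold of 0.05. Genes entered with at least 1 FPKM in at least 3 libraries; 17 genes listed at 0 with a failed or skipped estimate were left out, a step added after the files were seen, leaving 8340. A fold change is a ratio of mean FPKM; a log2 change is on the log2(FPKM + 1) scale, which understates the change of low genes. The fit was tested on simulated data. Fragment numbers were worked out from the FPKM confidence limits, which lie 2 square roots of the count either side of it. Counts under 50 came out whole within 0.02 for only 56.6 to 60.6% of values, so no count test was run. For some genes the implied number varied far more between libraries than the FPKM. The gene mino gave 145 to 2406 fragments at means of 37.6 FPKM in EcRts stage 10, 48.0 in WT stage 10 and 45.1 in WT stage 8. The depth of a library is thus inferred. No 2 libraries held identical values.

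The 10 members and the gene lists were chosen with earlier results of these data known. All 10 members are named, and of the other pathway genes the 3 largest called rises and falls per comparison. For piwi, aub and AGO3 the 3 genes outside the members with the closest profile are named. Genes were matched by symbol or by current synonyms, and flam is not analysed here. The protein-coding sum took the 13222 genes so marked in a current annotation, which does not list the identifiers of some coding genes, such as vas. Alternatives, each changing 1 choice, were other pseudocounts (0.1 and 5), no filter or at least 5 FPKM, 5 scalings (median of ratios, quantile, protein-coding sum, sum outside 24 eggshell and yolk genes, germline markers), failed genes kept, only the libraries compared, a replicate block and leaving out each library; the germline scaling and the kept failed genes were added after the data were seen.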

Additional observations from a re-analysis of the deposited data

How the results depend on the processing

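Of the 630 results for single members under 21 alternatives each, 580 kept their side of the threshold, 32 lost a call, 16 gained one and 2 turned round with a call in either setting. The same was not counted over all tested genes. Changes of direction between values that both missed the threshold are counted within the 580. One such was rhi in WT stage 10 against WT stage 8, at 0.12 as deposited and as low as -0.15 over the scalings. Those that turned were krimp in WT stage 10 against WT stage 8 after quantile normalization (-0.06) and zuc in EcRts stage 10 against WT stage 10 outside eggshell and yolk genes (-0.17). r2d2 in EcRts stage 10 against WT stage 10 also turned, to 0.01 (adjusted p = 0.913), relative to protein-coding genes. Other scalings gave the larger shifts, and the cause was not tested. The calls over all 8340 tested genes shifted as well. In WT stage 10 against WT stage 8 they were 2736 higher and 2549 lower under median-of-ratios scaling. Quantile normalization gave 2626 higher and 2537 lower there, and scaling outside eggshell and yolk genes 5393 higher and 869 lower. In WT stage 10 against WT stage 8, median-of-ratios scaling left 2 members called higher, a member median of 0.03, and 16 other pathway genes higher with 20 lower; quantile normalization gave a member median of -0.01 and 17 other pathway genes lower; outside eggshell and yolk genes, 1 member was called lower, the member median was 0.46 and 3 other pathway genes were lower. In EcRts stage 10 against WT stage 10, median-of-ratios scaling left 2 members lower, a median of 0.01, and 9 other pathway genes higher with 10 lower. Quantile normalization left 2 lower, a median of 0.02, and 9 higher with 11 lower. Relative to protein-coding genes 2 members were lower, the median was 0.08, and 12 other pathway genes were higher with 4 lower. Over all tested genes, the calls in this comparison were 1634 higher and 1559 lower under median-of-ratios scaling. They were 1596 higher and 1744 lower after quantile normalization, and 2249 higher and 1052 lower relative to protein-coding genes. Outside eggshell and yolk genes 5632 genes were called, 456 as higher and 5176 as lower. There 1 member was higher and 8 lower, the median was -0.29 and 2 other pathway genes were higher. With no filter on low values 2 other pathway genes were higher, beside 723 of all 15581 genes then tested. In EcRts stage 10 against WT stage 8, median-of-ratios scaling gave 5 members lower and a median of -0.09, quantile normalization a median of -0.16, and protein-coding scaling a median of 0.13 and 28 other pathway genes higher. Over all tested genes there, median-of-ratios scaling gave 2687 higher and 2297 lower, and protein-coding scaling 4289 higher and 1324 lower. Leaving out each library in turn gave, in EcRts stage 10 against WT stage 10, 2846 to 3701 called genes, 1 to 2 members higher, 3 to 4 lower, a member median of -0.13 to -0.09, and 2 to 5 other pathway genes higher; the 2 were reached without EcRts stage 10 replicate 1 and without replicate 2. It gave 5259 to 5647 called genes in WT stage 10 against WT stage 8 and 4462 to 5128 in EcRts stage 10 against WT stage 8. The replicate numbers of the labels did not pair the samples: over 9 pairs of libraries with the same number, the correlation of their deviations was -0.039 to 0.23, with 2 pairs over 0.1. With the replicate number as a block, 5550 genes were called in WT stage 10 against WT stage 8 (6 members higher, 2 lower), 3336 in EcRts stage 10 against WT stage 10 (2 higher, 3 lower) and 4930 in EcRts stage 10 against WT stage 8 (2 higher, 4 lower). Under the block AGO3 passed in EcRts stage 10 against WT stage 8 (-0.21, adjusted p = 0.0125). Of the members, zuc had the fewest implied fragments in a library, at 307, and the effect of depth was not tested.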
